A study of Mus musculus with 2 samples.

Results

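Messages of 10 genes of the Hippo pathway were measured in E14, a line of mouse embryonic stem cells that derives from the blastocyst of the 129/Ola background. The genes are the coactivators Yap1 and Wwtr1 (which encodes the protein TAZ), the DNA-binding factors Tead1, Tead2, Tead3 and Tead4, the kinases Lats1 and Lats2, the upstream activator Nf2 and the Tead-binding repressor Vgll4. They were chosen by symbol, and all 10 were found among the 43629 gene identifiers of both tables. The cells were wild type and the labels name no treatment. Polyadenylated RNA was sequenced in duplicate, 1 library labelled P33 and 1 labelled P42 under age, which for a cultured line may stand for passages but is not spelled out. The labels do not say whether separate cultures were used, so the spread between libraries may be partly technical, and they mention no feeder cells.

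The Hippo pathway carries cues from cell contacts, polarity and the cytoskeleton to transcription. Upstream proteins such as the one made from Nf2 activate a kinase cassette that ends in Lats1 and Lats2. These phosphorylate YAP and TAZ, which are then held in the cytoplasm or degraded, and unphosphorylated YAP and TAZ enter the nucleus and bind Tead factors. In the mouse embryo this switch separates the outer trophectoderm, where Tead4 and YAP drive Cdx2, from the inner cell mass, the source of embryonic stem cells. Phosphorylation and place in the cell leave no direct mark on message levels.

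Tead factors bind DNA at the letters GGAATG, which read CATTCC on the other strand. These letters were looked for on both strands of RefSeq promoter windows (GRCm38.p6), each 300 bases long with 250 before the start of transcription. A window was matched for 8 of the 10 genes, all but Tead1 and Tead4. The letters were present in a window of 5 of the 8 genes, Yap1, Wwtr1, Vgll4, Tead3 and Lats2, and in none of the windows of Nf2, Lats1 and Tead2. Over all 27025 genes with a window the share was 16.6%, and over all 32851 windows 14.7%. A list of 22 genes known as YAP and TAZ targets had windows for 15 genes, and 7 of them held the letters. A match is a description of the sequence and not evidence of binding.

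The stretches below, from 180 to 61 bases before the start on the gene's own strand, show the match in capitals. Of the 10 genes they show those with a match upstream of the start, since the match of Lats2 lies behind it. Beside them stand Ccn1, Ankrd1 and Ptpn14, 3 target genes picked among those with a match, whose counts or levels are given further on. Of other target genes named there, Nt5e had a window without a match, and Ccn2, Dock5 and Arhgef17 had no window. Ankrd1 has another match 210 bases before the start, outside the stretch. Tead3 held 2 matches close together, here from the window of its middle start site. The stretches are chr9:8004657-8004776 (minus strand) for Yap1, chr3:57575971-57576090 (minus) for Wwtr1, chr6:114969264-114969383 (minus) for Vgll4, chr17:28350661-28350780 (minus) for Tead3, chr3:145650046-145650165 (minus) for Ccn1, chr19:36119905-36120024 (minus) for Ankrd1 and chr1:189728088-189728207 (plus) for Ptpn14.
Yap1: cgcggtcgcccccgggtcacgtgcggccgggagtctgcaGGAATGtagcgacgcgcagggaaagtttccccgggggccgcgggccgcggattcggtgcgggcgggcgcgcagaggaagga
Wwtr1: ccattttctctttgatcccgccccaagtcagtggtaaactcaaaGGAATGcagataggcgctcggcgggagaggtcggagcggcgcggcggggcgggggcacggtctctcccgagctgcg
Vgll4: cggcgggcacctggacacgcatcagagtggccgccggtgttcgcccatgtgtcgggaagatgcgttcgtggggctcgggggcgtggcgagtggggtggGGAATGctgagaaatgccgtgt
Tead3: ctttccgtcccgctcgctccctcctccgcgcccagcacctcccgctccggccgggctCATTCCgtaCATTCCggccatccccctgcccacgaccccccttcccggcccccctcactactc
Ccn1: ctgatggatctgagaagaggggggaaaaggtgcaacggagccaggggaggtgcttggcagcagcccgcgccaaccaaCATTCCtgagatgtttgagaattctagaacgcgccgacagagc
Ankrd1: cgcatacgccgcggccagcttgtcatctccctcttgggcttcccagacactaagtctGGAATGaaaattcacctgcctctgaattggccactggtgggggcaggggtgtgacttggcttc
Ptpn14: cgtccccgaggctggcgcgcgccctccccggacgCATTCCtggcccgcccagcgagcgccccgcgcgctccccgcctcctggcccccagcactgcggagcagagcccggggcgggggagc

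Counts were scaled by library size with TMM factors (CPM) and then by kilobases of merged exons (RPKM), so that levels of genes of different length can be compared. The total was 40139219 counts in P33 and 39657578 in P42. A gene was detected where it reached 1 CPM in each library, which held for 9 of the 10 genes. Tead3 was the exception, with 97 counts in P33 and 36 in P42, or 2.30 and 0.953 CPM. The summed level of the 10 genes was 113 RPKM in P33 and 112 RPKM in P42.

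Nf2, on chromosome 11 (4765845 to 4849536, mm10), had the highest level of the group at 27.5 ± 4.15 RPKM (SD, n = 2 here and below). It encodes merlin, a protein of the cell cortex that recruits and activates Lats kinases. Yap1, on chromosome 9 (7931999 to 8004596), followed at 22.8 ± 0.0435 RPKM, and Tead1, on chromosome 7 (112679318 to 112906807), at 19.3 ± 2.47 RPKM. All 3 stood above the median of 5.78 RPKM over the tested genes, defined as those with a mean of at least 1 CPM. Yap1 lay above 81.0% of them.

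Tead2, also on chromosome 7 (45215753 to 45233644), stood at 15.9 ± 4.11 RPKM. For Wwtr1, on chromosome 3 (57455649 to 57575910), the level was 11.3 ± 4.27 RPKM, and for Tead4, on chromosome 6 (128224288 to 128300823), 8.74 ± 3.78 RPKM. Lats1, on chromosome 10 (7681214 to 7716460), was at 4.95 ± 1.65 RPKM. The other kinase gene, Lats2 on chromosome 14 (57689662 to 57758388), was much lower at 0.738 ± 0.174 RPKM. Vgll4, on chromosome 6 (114860628 to 114969994), encodes a protein that displaces YAP and TAZ from Tead factors, and it stood at 0.962 ± 0.598 RPKM. Tead3, on chromosome 17 (28331671 to 28350817), was lowest at 0.242 ± 0.142 RPKM, above 2.14% of the tested genes.

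In this order of levels the ranges of the libraries did not overlap between Nf2 and Yap1, Yap1 and Tead1, Lats1 and Vgll4, or Lats2 and Tead3. They overlapped between Tead1 and Tead2, Tead2 and Wwtr1, Wwtr1 and Tead4, Tead4 and Lats1, and Vgll4 and Lats2, so the order of these neighbours is not settled. With the longest transcript in place of the merged exons Yap1 stood above Nf2, and the other 8 places were the same. That length raised the level most for Vgll4, to 2.36 RPKM, for Tead3, to 0.473 RPKM, and for Yap1, to 40.05 RPKM.

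**Figure D1:**
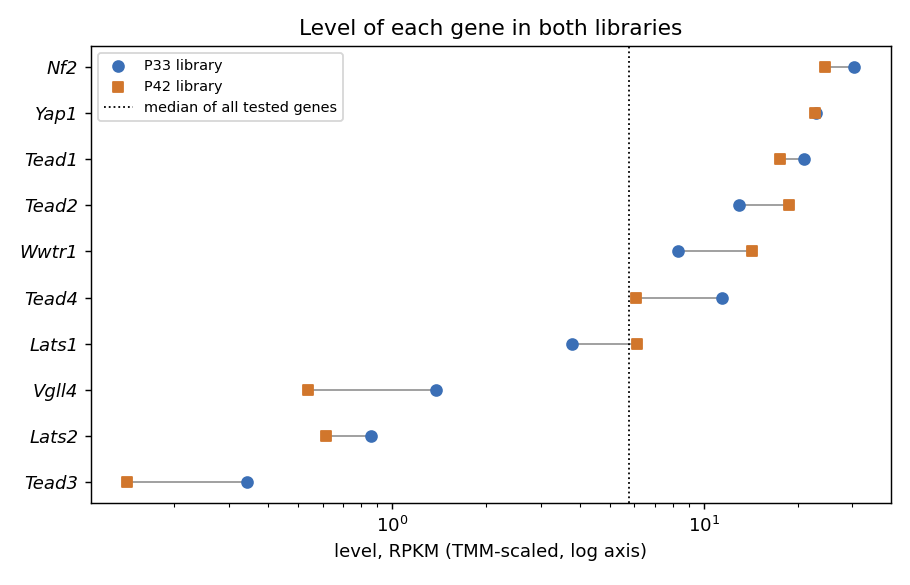
Level of each of the 10 genes in RPKM (log axis), with 1 point for the P33 library and 1 for the P42 library, and the median of all tested genes as a dotted line. Nf2, Yap1 and Tead1 sit highest, and Vgll4, Lats2 and Tead3 lie below the median in both libraries.

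Gene-level counts of these paralogs rest on distinct sequence. Of the 50-base words in the longest transcript, Tead3 and Tead4 shared 10 with each other, and the other paralogs in the group shared none. Words found in transcripts of other genes made up at most 1.15% for 9 of the 10 genes. For Lats2 they made up 56.5%, from Gm49361, an annotated gene that overlaps it on the same strand and has no row in the count tables. Yap1 overlaps Gm20416 by 116 exonic bases on the opposite strand, and that gene had 0 counts in both libraries, where a count of 0 allows up to 3. Tead2 overlaps Cd37 by 13.

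With 1 library per label there is no replicate check on the comparison of P42 with P33, and no test was made. Log2 ratios of P42 over P33 carry an exact 95% interval that covers counting error only, and reads copied by PCR are not independent. A gene was called different when its mean was at least 1 CPM, the log2 ratio was at least 1 in size (2-fold) and its interval lay on 1 side of 0. By this rule 14.6% of 13737 tested genes were called, 5.07% higher and 9.54% lower in P42. With scaling by total counts every ratio moves by -0.14, and the share of lower genes among those called was 78.1% in place of 65.3%. The median absolute log2 ratio of all tested genes was 0.41, and counts of single genes below are to be read against these values.

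Among the 10 genes none was called higher and 2 were called lower in P42, Vgll4 and Tead3. Vgll4 had 315 counts in P33 and 110 in P42, or 1.38 and 0.540 RPKM, a log2 ratio of -1.36 (-1.69 to -1.04). A ratio at least as large in either direction was seen in 7.27% of the tested genes. Tead3 stood at 0.343 and 0.142 RPKM, a log2 ratio of -1.26 (-1.87 to -0.71), and 8.62% of the tested genes had one as large. Tead3 passed the minimum of 1 CPM only through the P33 library. Across genes the ratio varied with transcript GC content, with a Spearman correlation of -0.39 as a description. With the trend on GC content and exon length removed, Vgll4 was still called lower at -1.03 and Tead3, at -0.77, was not, beside 8.19% of all tested genes called lower and 3.85% called higher. At 3-fold none of the 10 genes was called, beside 1.07% of all tested genes higher and 3.82% lower. At 1.5-fold Wwtr1 and Lats1 were called higher, beside 16.1% of all tested genes, and Vgll4, Tead3 and Tead4 lower, beside 18.9%.

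The coactivator genes differed from each other. Yap1 had 8928 counts in P33 and 7977 in P42, a level of 22.9 RPKM in P33 and 22.8 RPKM in P42 and a log2 ratio of -0.00 (-0.05 to 0.04). Wwtr1 stood at 8.30 RPKM in P33 and 14.3 RPKM in P42, a log2 ratio of 0.79 (0.70 to 0.88), under the 2-fold threshold. Within a library the ratio of 2 genes does not depend on library scaling. Per kilobase, Yap1 was 2.76-fold above Wwtr1 in P33 and 1.59-fold above it in P42, which is 1.46 and 0.67 on the log2 scale. With the longest transcript as length these log2 ratios were 2.25 and 1.46. The log2 ratio of Yap1 to Wwtr1 was lower in P42 by a difference of -0.79 (-0.89 to -0.69, exact conditional counting interval). Without the trend on GC content and length this difference was -0.63. The summed level of both genes was 31.2 RPKM in P33 and 37.2 RPKM in P42.

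Among the Tead genes, Tead1 made up the largest part in P33 and Tead2 in P42. Tead1 stood at 21.0 RPKM in P33 and 17.5 RPKM in P42, a log2 ratio of -0.26 (-0.30 to -0.22). Tead2 was at 13.0 and 18.8 RPKM, a ratio of 0.53 (0.46 to 0.61), and Tead4 at 11.4 and 6.07 RPKM, a ratio of -0.91 (-1.03 to -0.79). None of these 3 reached 2-fold, although Tead4 was called lower at -1.05 with scaling by total counts, and Tead2 went the other way from Tead1 and Tead4. Tead2 took 28.4% of the summed Tead level in P33 and 44.2% in P42, while Tead4 took 24.9% and 14.3%. Tead1 took 45.9% and 41.2%, and Tead3 0.748% and 0.333%. The summed level of the 4 genes was 45.8 RPKM in P33 and 42.6 RPKM in P42.

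The ratio of Tead2 to Tead4 showed this shift without regard to scaling. Tead2 was 1.14-fold above Tead4 in P33 and 3.10-fold above it in P42, a log2 difference of 1.44 (1.30 to 1.58). Both transcripts have nearly the same GC content, 57.9% for Tead2 and 58.1% for Tead4, and without the trend on GC content and length the difference was 1.48. The ratio of Tead1 to Tead2 went from 0.69 in P33 to -0.10 in P42 on the log2 scale, a difference of -0.79 (-0.88 to -0.71). Without the trend it was -1.15.

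**Figure D2:**
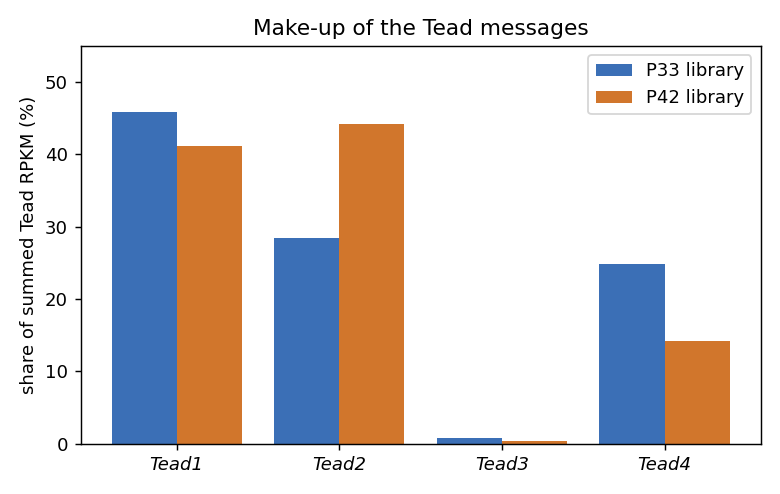
Share of each Tead gene in the summed Tead level in RPKM, as bars from 0 for the P33 and the P42 library, 1 value per library and no error bar. Tead2 goes from 28.4% to 44.2% and Tead4 from 24.9% to 14.3%, while Tead3 stays under 1% in both.

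The kinase genes also went opposite ways, with neither at 2-fold. Lats1 stood at 3.79 RPKM in P33 and 6.12 RPKM in P42, a log2 ratio of 0.69 (0.58 to 0.80). Lats2, which is itself a known YAP target gene, had 253 and 162 counts, a level of 0.861 and 0.615 RPKM and a ratio of -0.48 (-0.78 to -0.19). Lats1 was 4.40-fold above Lats2 in P33 and 9.94-fold above it in P42, a log2 difference of 1.18 (0.87 to 1.49). Without the trend on GC content and length the difference was 0.85. Nf2 was at 30.4 RPKM in P33 and 24.5 RPKM in P42, a ratio of -0.31 (-0.36 to -0.26).

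GC content moved with the direction of several of these ratios, and its part in them was not tested. The 4 genes with transcripts below 50% GC were Lats1, Wwtr1, Yap1 and Tead1, with log2 ratios from -0.26 to 0.79. Of the 6 genes above it, 5 had ratios below 0 and Tead2 did not. Among all tested genes 31.9% of those below 50% GC and 64.1% of those at or above it had a ratio below 0. With the trend removed all 10 genes kept the sign of their ratio, and Wwtr1 was at 0.51, Lats1 at 0.49 and Tead2 at 0.93. Below 0 the corrected ratio was -0.55 for Tead4, -0.36 for Lats2, -0.22 for Tead1, and -0.11 for both Nf2 and Yap1.

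**Figure D3:**
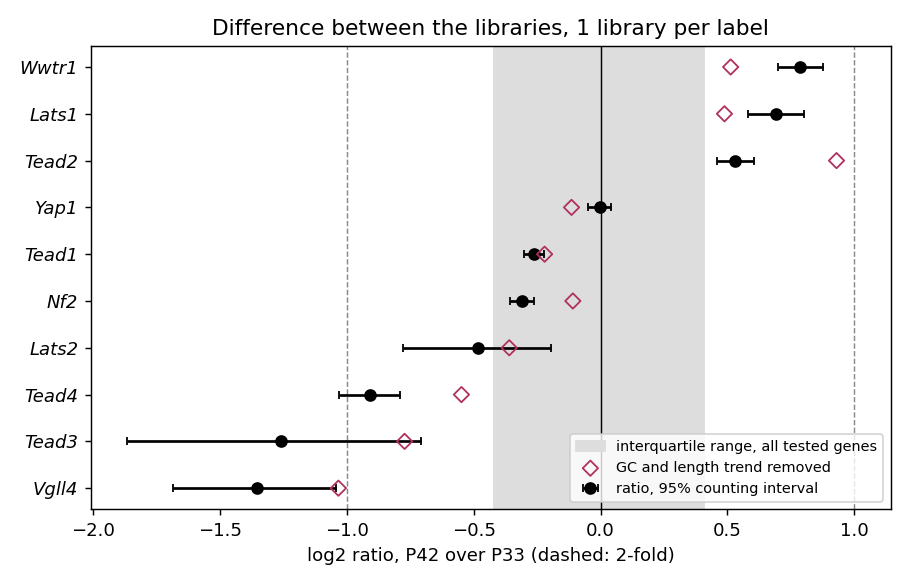
Log2 ratio of P42 over P33 for the 10 genes with 95% counting intervals, and as open diamonds the ratio corrected for GC content and length. The grey band is the interquartile range of all tested genes, and the dashed lines mark 2-fold. Vgll4 and Tead3 lie beyond 2-fold on the lower side, and Yap1 lies at 0.

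Other genes of the pathway were followed in 8 lists, and 63 of their 69 genes outside the group of 10 had a mean of at least 1 CPM. Of these 2 were called higher and 4 lower in P42, beside 5.07% and 9.54% of all tested genes. The median log2 ratio of the 63 was 0.09 against 0.04 over all tested genes. The higher ones were Sav1 and Mob4. The lower ones were Ptpn14, Scrib, Amotl1 and Vgll3, of which Vgll3 passed the minimum of 1 CPM only through the P33 library.

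All 9 genes of the core kinase list were detected. Mob1a, whose product is a coactivating subunit of the Lats kinases, stood at 33.4 RPKM in P33 and 29.3 RPKM in P42, and Stk4, which encodes a kinase that activates them, at 24.5 and 28.2 RPKM. Sav1, the gene of the scaffold that holds the upstream kinases, was called higher, with 6.67 and 13.5 RPKM and a log2 ratio of 1.02 (0.93 to 1.11). Sav1 was the 1 gene called of 9 tested, beside 5.07% higher and 9.54% lower among all tested genes. That call was lost with scaling by total counts and with the trend removed, which gave 0.72. Of the Map4k and Taok kinases, which can phosphorylate Lats kinases beside Stk3 and Stk4, all 10 were detected. None was called, beside 14.6% of all tested genes. Map4k4 stood at 28.0 RPKM in both libraries and Taok1 at 17.3 and 18.7 RPKM.

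Junction and polarity genes held 3 of the lower calls among 18 tested, beside 9.54% of all tested genes called lower. With the trend removed 2 stayed called lower, beside 8.19%. The list median was -0.21, and -0.07 with the trend removed. Ptpn14, which encodes a phosphatase that binds YAP, stood at 5.86 RPKM in P33 and 1.06 RPKM in P42, a log2 ratio of -2.46 (-2.59 to -2.33). Scrib, a polarity scaffold gene, was at 16.2 and 5.93 RPKM, a ratio of -1.45 (-1.54 to -1.36), and with the trend removed, at -0.80, it was not called. Amotl1, whose product tethers YAP, was at 5.41 and 2.06 RPKM, a ratio of -1.39 (-1.51 to -1.28). Its relatives went different ways, Amotl2 with a ratio of -0.86 and Amot with one of 0.97, neither at 2-fold. Ptpn14 lies on chromosome 1 and Scrib on chromosome 15. The tight junction gene Tjp1 had a ratio of -0.27. Fat4 and Dchs1, which encode the giant cadherins of the pathway, had 2 and 5 counts in P33 and 0 and 10 in P42.

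STRIPAK, a phosphatase complex that keeps Stk3 and Stk4 inactive, had all 12 subunit genes tested and a median log2 ratio of 0.49. Mob4 was its only gene called, and it was higher, beside 5.07% of all tested genes called higher and 9.54% lower. Mob4 stood at 12.4 RPKM in P33 and 34.0 RPKM in P42 with a ratio of 1.46 (1.39 to 1.52), and it lies on chromosome 1. Ppp2r1a and Ppp2ca, which encode the scaffold and catalytic subunits of the phosphatase, were the most abundant, with ratios of -0.17 and 0.63. With the trend removed the median of the list was 0.23.

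The genes that act on YAP and TAZ after phosphorylation, 7 of 14-3-3 proteins and 6 of YAP turnover, held no call. Neither did the 3 genes of Lats-binding LIM proteins. Of all tested genes 14.6% were called, so the lack of a call in lists this short says little. Among the 14-3-3 genes, whose products hold phosphorylated YAP in the cytoplasm, Ywhae stood at 454 RPKM in P33 and 631 RPKM in P42 and Ywhaz at 125 and 127 RPKM. For the casein kinase and ubiquitin ligase genes of YAP turnover, Skp1a and Cul1 were most abundant, with log2 ratios of 0.35 and 0.65. Of the Lats-binding LIM protein genes, Ajuba stood at 31.3 and 24.7 RPKM and Wtip at 9.78 and 9.69 RPKM.

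Of the other Tead cofactor genes Vgll3 reached a mean of 1 CPM, with 145 counts in P33 and 35 in P42 and a log2 ratio of -1.88 (-2.47 to -1.35). Like Tead3 it passed this minimum only through P33. Vgll1 had 9 and 0 counts, and Vgll2 had 0 in both libraries. Fam181a and Fam181b had between 1 and 11 counts. Yap1 and Wwtr1 together held 31.2 of the 33.2 RPKM summed over this list in P33 and 37.2 of 38.0 RPKM in P42.

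**Figure D4:**
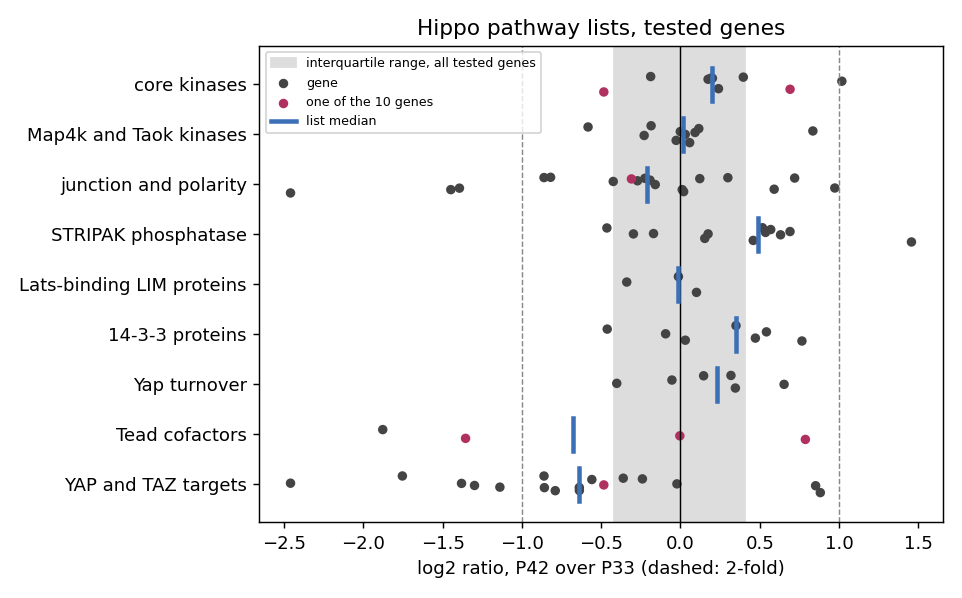
Log2 ratio of P42 over P33 for each tested gene of the pathway lists and of the target list, with list medians as vertical bars. Red points are those of the 10 genes that the lists hold, Yap1, Wwtr1, Vgll4, Lats1, Lats2 and Nf2. The Tead genes are in none of these lists and are not shown. The STRIPAK median lies at 0.49 and the target median at -0.64, both outside the interquartile range of all tested genes shown in grey.

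A list of 22 genes known as YAP and TAZ targets from work in cancer cells was followed beside the pathway genes. In P42, 5 of its 17 tested genes were called lower and none higher, beside 9.54% and 5.07% of all tested genes. Its median log2 ratio was -0.64 against 0.04 over all tested genes, and 15 of the 17 had a ratio below 0 where 47.3% of all tested genes did. With the trend removed the median was -0.56, with 14 of 17 below 0. The 5 genes without a test were near absence, among them Ankrd1 with 18 and 14 counts.

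The genes called lower were Ccn2, Ptpn14, Dock5, Nt5e and Arhgef17. Ccn2, which encodes a secreted matricellular protein and is a classical YAP target, stood at 16.1 RPKM in P33 and 4.78 RPKM in P42, a log2 ratio of -1.75 (-1.90 to -1.61). Dock5, the gene of an activator of Rac, was at 8.68 and 3.53 RPKM, a ratio of -1.30 (-1.38 to -1.22). Nt5e, which encodes an ecto-nucleotidase, was at 3.61 and 1.39 RPKM, a ratio of -1.38 (-1.54 to -1.23). These 3 genes lie on chromosomes 10, 14 and 9. Arhgef17 had a ratio of -1.14 (-1.31 to -0.97), and -0.56 with the trend removed.

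Other classical targets were closer between the libraries. Ccn1, a relative of Ccn2, stood at 5.59 RPKM in P33 and 4.35 RPKM in P42, a log2 ratio of -0.36 (-0.57 to -0.16). Gadd45a, the most abundant gene of the list, was at 25.6 and 25.2 RPKM. The genes above 0 were F3 and Nuak2, at 0.88 and 0.85. In sum the target list went from 107 RPKM in P33 to 72.2 RPKM in P42. This list holds Lats2 from the group of 10, and Ptpn14 and Amotl2 from the junction list. Yap1 and Wwtr1 together stood at 31.2 and 37.2 RPKM, and a link between their messages and the targets was not tested.

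**Figure D5:**
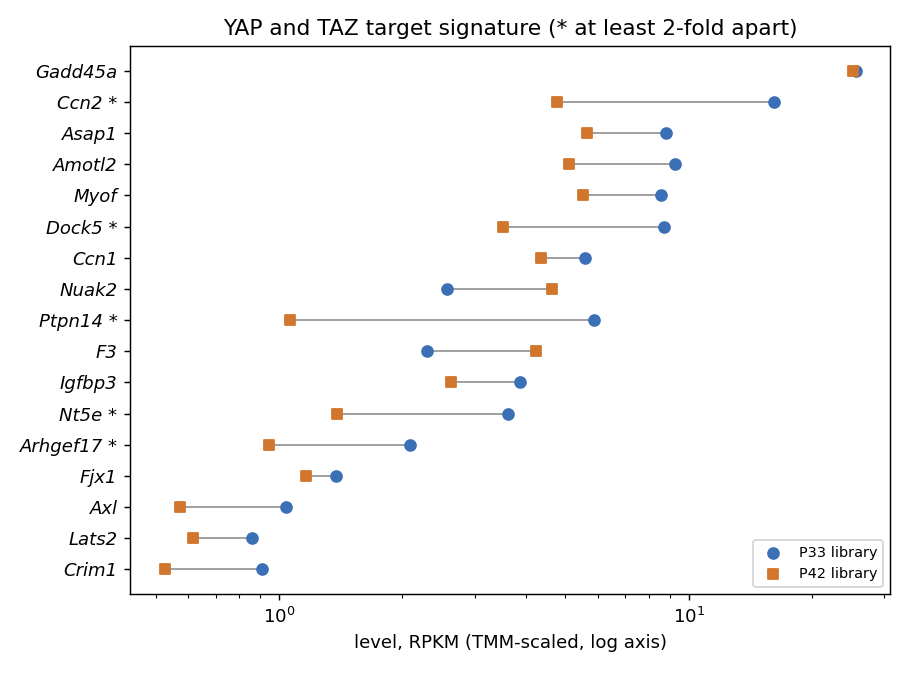
Level in RPKM (log axis) of the 17 tested genes of the YAP and TAZ target list in the P33 and the P42 library, with an asterisk at genes called different. The P42 point lies to the left for 15 genes, and to the right for F3 and Nuak2.

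Markers of the labelled cells and of cells that could lie among them moved between the libraries too. Of all tested genes 5.07% were called higher and 9.54% lower. All 8 pluripotency markers were detected, with a summed level of 3751 RPKM in P33 and 4253 RPKM in P42 and 2 of 8 ratios below 0, or 3 with scaling by total counts. Klf4, at 47.0 and 167 RPKM, and Sox2, at 147 and 301 RPKM, were called higher. The call of Sox2 was lost with scaling by total counts and with the trend removed, which gave 0.86. Pou5f1 stood at 357 and 224 RPKM and was not called. For trophectoderm 5 of 8 markers were tested and the sum was 27.8 and 20.1 RPKM. Its defining factors Cdx2 and Gata3, which the Tead4 switch controls in the embryo, each had 5 counts in P33 and 1 in P42, and Krt8 and Krt7 were called lower, Krt7 having passed the minimum only through P33. Tfap2c, the most abundant of the list, had a log2 ratio of 0.14 and Eomes one of 0.98, which with the trend removed was 1.11 and a call. Primitive endoderm markers summed to 7.33 RPKM in P33 and 22.3 RPKM in P42, with all 6 genes detected in both libraries called higher, and Sox17, which passed the minimum only through P42, called too. Fibroblast markers summed to 29.1 and 23.8 RPKM, with none called. Vim, at 17.4 and 14.2 RPKM, and Thy1, at 9.96 and 8.24 RPKM, made up most of this sum. Pdgfrb had 274 and 210 counts and Fbn1 183 and 88. Lum, Dcn and Postn had 0 counts in both libraries, and Col1a1 had 45 and 14. The part of these cell types in the ratios of the Hippo genes and their targets was not tested, and in bulk RNA fewer cells of a type and less RNA per cell cannot be told apart.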

How the data were processed

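Each library has its own table from the authors, which holds raw counts by Ensembl gene identifier, per the file headers. Per the submitters' processing notes STAR 2.4.2a, featureCounts 1.4.5-p1 and mm10 were used, and per the labels the libraries came from a TruSeq RNA kit with a reverse-stranded protocol. Not given in the sources used here are the annotation release, the strand setting and the handling of multi-mapping reads. GENCODE M21 (GRCm38, the assembly of mm10) gave a symbol for 42548 of 43629 identifiers. Library sizes were scaled by TMM in edgeR 4.0.16 (R 4.3.3), so that 1 CPM stood for 42.2 counts in P33 and 37.8 in P42. Ratios used a prior count of 0.5 and exact Clopper-Pearson intervals. Trends on GC content and merged exon length were removed by lowess with a span of 0.3 (statsmodels 0.14.6). The calling rule was tested on simulated counts that held counting error only, so spread between libraries beyond counting error was not covered by that test. Further tools were scipy 1.17.1, numpy 2.4.6 and pandas 2.3.3 under Python 3.11.15. The alternatives covered scaling (total counts, size factors of DESeq2 1.42.0), minimums, folds, prior count, gene length and each library alone. The 10 genes and the lists were chosen with earlier results of these data known. Named were the 10 genes and, for each list, the 2 genes of highest mean RPKM and up to 6 called genes, and others named were chosen after their values were seen. Of the genes this rule takes, 1 is not reported here.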

Additional observations from a re-analysis of the deposited data

How the results depend on the processing

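All 10 log2 ratios kept their sign with DESeq2 size factors, total counts, a prior count of 2 and the trend removed, and detection of 9 of the 10 genes was the same under both other scalings. From each library alone the number detected ran from 9 to 10. The number called lower went from 2 to 1 at a mean of 5 CPM, where Tead3 is not tested, to 1 with the trend removed and to 0 at 3-fold. The share of all tested genes called lower was 9.54% at 2-fold, 8.19% with the trend removed and 3.82% at 3-fold. At 1.5-fold 2 genes, Wwtr1 and Lats1, were called higher instead of 0, beside 16.1% of all tested genes. Over all genes there were 697 higher and 1311 lower calls among 13737 tested genes. These became 1080 and 2349 among 24129 with no CPM minimum, and 425 and 666 among 10672 at 5 CPM. Among the same 13737 genes they became 2205 and 2603 at 1.5-fold, and 147 and 525 at 3-fold. By length of the longest transcript the mean log2 ratio of Yap1 to Wwtr1 was 1.85 in place of 1.07, since the merged exons of Yap1 are much longer than its longest transcript. The other 6 gene ratios moved by less than the SD of the libraries. Of these the mean log2 ratio of Tead1 to Tead3, at 5.93, fell just under the range from 5.94 in P33 to 6.95 in P42. Without division by length Tead1 took 73.0% of the Tead counts in P33 and 67.8% in P42. With total counts Tead4 joined the genes called lower, beside 1658 of all 13756 genes tested at that setting. Depth limits Tead3, Vgll4 and Lats2 most, with 36 to 315 counts per library. No paired analysis was possible because the labels give 1 group.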
